A study of Mus musculus with 2 samples.

Results

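The genes described here belong to the fat, bone and cartilage lineages: the transcription factor genes Pparg, Cebpa, Cebpb and Prdm16 and the fat cell products Adipoq, Lep and Ucp1 for fat, the factor genes Runx2 and Sp7 for bone, and the factor gene Sox9 for cartilage. They were studied through the CpG cytosines in their bodies and within 1 kb of their starts, outside CCGG and TCGA (the sites cut by MspI and TaqαI), with at least 5 reads in each library. The rule kept 2040 cytosines of 1134 CpGs, out of 1850635 such cytosines in the genome. All 10 genes held at least 4 of them, but very unevenly: 873 lay in Prdm16, 385 in Runx2, 306 in Cebpb, 187 in Cebpa, 126 in Sox9, 94 in Pparg, 40 in Sp7, 17 in Lep, 8 in Adipoq and 4 in Ucp1.

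Muscle, fat, bone and cartilage cells arise from mesenchymal precursors, and each fate is set by a few transcription factors. C/EBPβ starts the adipogenic cascade and C/EBPα and PPARγ carry it through to fat genes such as Adipoq and Lep, PRDM16 directs brown fat and its thermogenic gene Ucp1, RUNX2 and then Osterix (the Sp7 product) direct osteoblasts, and SOX9 directs chondrocytes. CpG islands at the starts of such genes are usually free of methylation even where the gene is silent, whereas promoters with few CpGs, such as those of many tissue-specific genes, are often methylated.

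DNA methylation was measured by Methyl-MiniSeq, a form of reduced representation bisulfite sequencing, which reads the ends of restriction fragments and scores each CpG cytosine as methylated (read as C) or not (read as T). The DNA came from mouse C3H myoblasts, a commercial line, differentiated into myotubes, transfected with a control siRNA (siCon) or an siRNA to H19, a long non-coding RNA (siH19), and harvested 48 h later. There was 1 library per group, so every difference below is between 2 libraries and has no replicate check. Neither the loss of H19 RNA nor the muscle identity of the cells can be read from DNA methylation. The siCon library held 5453019 cytosines with a median depth of 12 and the siH19 library 5266846 with a median depth of 13, and in the listed genes the median depth was 26 in both. Intervals are Wilson 95% intervals of the read counts and cover counting error only. Among neighbouring cytosines of one strand within 60 bases in these genes, 73.4% had read numbers equal within 1 read in both libraries and 2.39% had exactly doubled numbers in both, and whether fragments were counted from both ends was not tested. Reads span several CpGs and are counted at each of them, so p-values over regions are too small.

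The 8 stretches of reference sequence given here each carry a contrast described below. They were read from the GRCm38 genome (RefSeq) and are written 5′ to 3′ in the direction of the gene, with capitals marking the CpGs at which at least 1 strand was compared. The first 2 lie directly upstream of gene starts and were almost free of methylation in both libraries (chr2:167688715-167688914 and chr11:112782024-112782223, both plus strand).
Cebpb upstream: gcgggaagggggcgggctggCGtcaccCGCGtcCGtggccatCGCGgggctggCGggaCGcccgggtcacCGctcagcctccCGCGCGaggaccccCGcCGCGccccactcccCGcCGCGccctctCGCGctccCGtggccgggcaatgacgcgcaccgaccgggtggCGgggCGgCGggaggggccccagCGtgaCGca
Sox9 upstream: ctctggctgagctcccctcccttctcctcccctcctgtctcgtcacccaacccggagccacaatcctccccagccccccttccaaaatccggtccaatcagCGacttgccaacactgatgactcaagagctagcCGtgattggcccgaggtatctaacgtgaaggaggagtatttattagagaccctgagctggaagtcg
The next 2 lie directly upstream of the starts of genes of mature fat cells and were partly methylated (chr6:29059920-29060219 and chr8:83290252-83290351, both plus strand). The Ucp1 stretch holds the only CpG compared in the start window of that gene.
Lep upstream: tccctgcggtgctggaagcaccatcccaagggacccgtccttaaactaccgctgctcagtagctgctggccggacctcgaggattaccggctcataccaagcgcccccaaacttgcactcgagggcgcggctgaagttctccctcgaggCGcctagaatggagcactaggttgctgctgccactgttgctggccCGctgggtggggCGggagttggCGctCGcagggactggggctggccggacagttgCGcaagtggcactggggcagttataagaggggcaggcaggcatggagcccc
Ucp1 upstream: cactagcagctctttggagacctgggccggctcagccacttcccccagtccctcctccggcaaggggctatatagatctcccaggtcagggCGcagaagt
The last 4 lie inside genes. A stretch of the last exon of Sox9 (chr11:112784787-112784986, plus strand) and a coding exon of Runx2 with its flanking intron (chr17:44724691-44724890, minus strand) were heavily methylated. A stretch of a Prdm16 exon (chr4:154341593-154341694, minus strand) holds a cytosine named below. Among cytosines of the listed genes that differed by at least 33 points, it had the lowest Fisher's exact p. An intronic CpG island of Sp7 (chr15:102362688-102362889, minus strand) was partly methylated and held the largest stratified difference among the islands of these genes with at least 10 compared cytosines.
Sox9 last exon: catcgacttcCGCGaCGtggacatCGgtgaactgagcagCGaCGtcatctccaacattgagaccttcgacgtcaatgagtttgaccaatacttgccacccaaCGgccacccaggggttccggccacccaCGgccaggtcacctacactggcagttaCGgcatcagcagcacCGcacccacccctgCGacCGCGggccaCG
Runx2 internal exon: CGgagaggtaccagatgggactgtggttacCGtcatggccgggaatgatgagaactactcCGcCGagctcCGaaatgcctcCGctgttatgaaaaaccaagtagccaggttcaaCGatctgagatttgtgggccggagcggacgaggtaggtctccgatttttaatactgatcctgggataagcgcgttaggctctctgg
Prdm16 exon: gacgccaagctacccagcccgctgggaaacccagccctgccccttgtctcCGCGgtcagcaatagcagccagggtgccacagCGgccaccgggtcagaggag
Sp7 intron island: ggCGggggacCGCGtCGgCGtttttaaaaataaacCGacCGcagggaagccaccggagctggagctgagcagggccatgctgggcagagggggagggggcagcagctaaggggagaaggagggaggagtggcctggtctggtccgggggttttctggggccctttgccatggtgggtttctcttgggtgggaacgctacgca

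The start regions ranged from nearly unmethylated to more than 50% methylated. In siCon, with reads summed over the window within 1 kb of the start, the order from low to high was Cebpb, Sox9, Cebpa, Pparg, Ucp1, Prdm16, Runx2, Lep and Sp7, from 0.660% to 56.6%. The intervals of neighbours in this order overlapped for Cebpa and Pparg, for Ucp1 and Prdm16, for Prdm16 and Runx2 and for Lep and Sp7, and the order in siH19 changed only within the pairs Ucp1 and Prdm16 and Lep and Sp7. Adipoq had no compared cytosine in its window. Among 13554 protein-coding genes with at least 5 compared cytosines in the window, the median level was 2.07% in siCon and 2.05% in siH19. Cebpb stood at percentile 21.2 of these genes and Sox9 at 40.3, Cebpa and Pparg stood at 59.9 and 60.8, Prdm16 at 78.0, and Lep and Sp7 at 93.8 and 94.0.

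**Figure D1:**
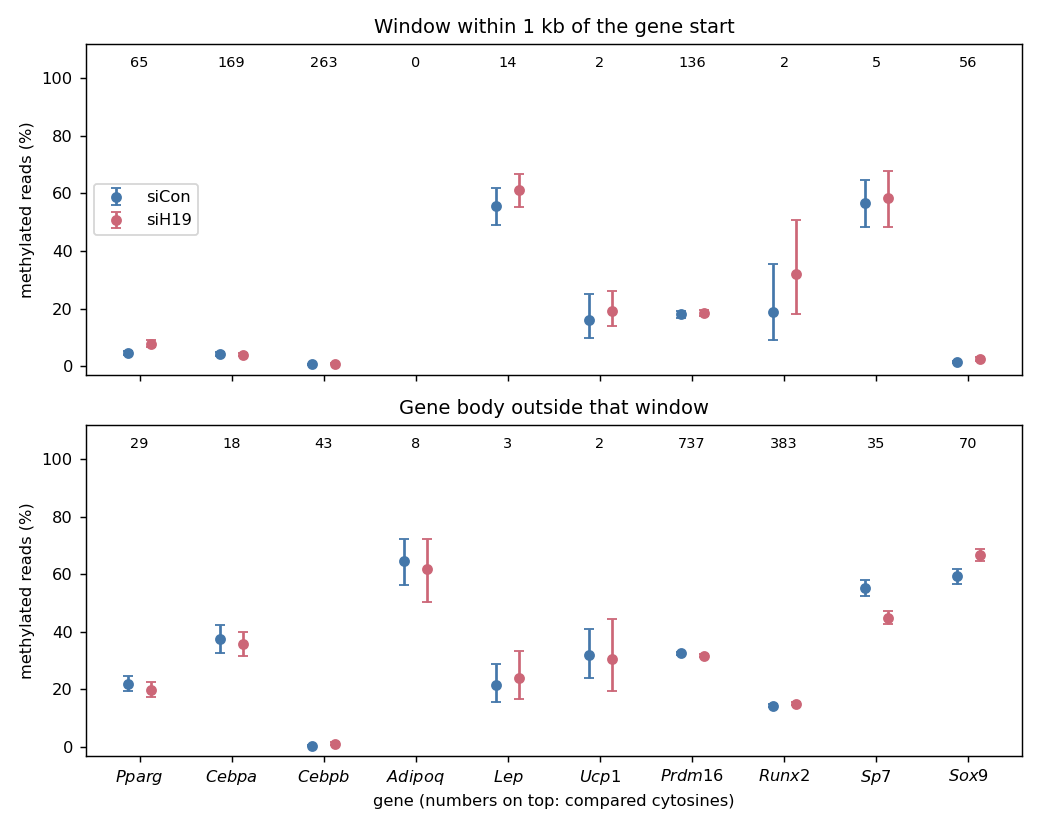
Share of methylated reads (%) in siCon (blue) and siH19 (red), summed over the window within 1 kb of the gene start (top) and over the gene body outside it (bottom). Bars are Wilson 95% intervals and the numbers on top count compared cytosines. Windows ran from under 1% in Cebpb to over 50% in Lep and Sp7, and the libraries lay close together in most genes.

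No start window or gene body of the listed genes was called different between the libraries. A call needed a Cochran-Mantel-Haenszel test stratified by cytosine with an adjusted p under 0.05 over all genes, together with a 10-point minimum difference, where the Mantel-Haenszel difference sets each cytosine against itself. Of 19476 windows of all genes 0.626% were called, and of 18018 bodies 0.316%. With at least 5 compared cytosines, 7 windows and 8 bodies of the listed genes could be tested, and 0 of each were called. Before adjustment 1 of the 7 windows and 4 of the 8 bodies had a Cochran-Mantel-Haenszel p under 0.05. The shares of all windows and bodies below this unadjusted p are not given here, so these counts have no genome value beside them. Windows that could not be tested were those of Adipoq, Ucp1 and Runx2, and the bodies of Lep and Ucp1 were too thinly covered. Of the 7 windows 6 were higher in siH19 and 1 was lower, and of the 8 bodies 3 were higher and 5 lower. Among all protein-coding genes the median difference was 0.0883 points for windows, with the middle 50% between -0.412 and 0.673. For bodies it was 0.183 points, with the middle 50% between -1.12 and 1.58. The shares of all genes that were higher or lower are not given here.

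**Figure D2:**
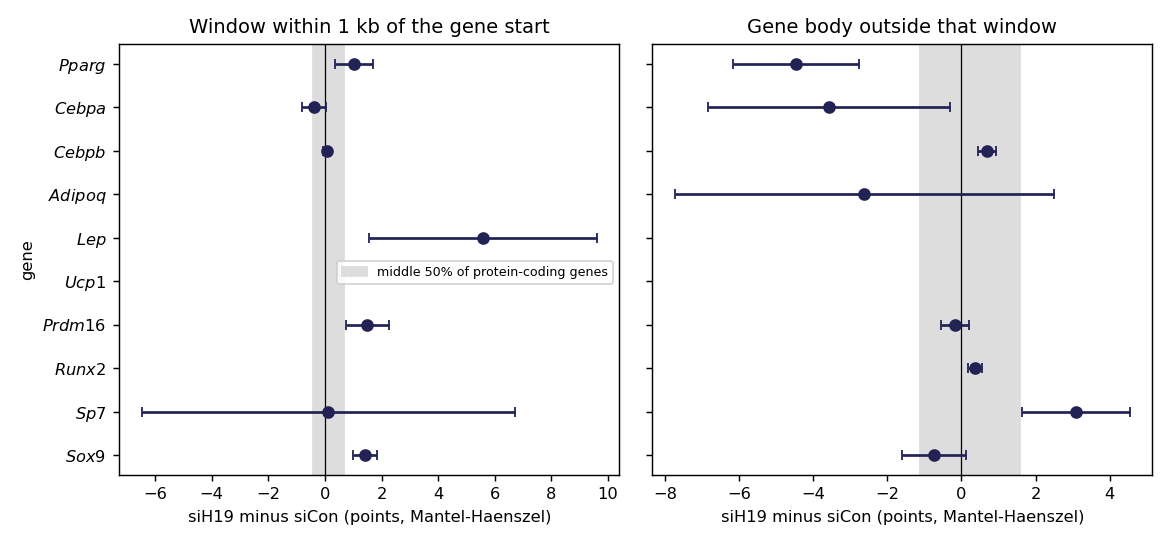
Mantel-Haenszel difference, siH19 minus siCon, in percentage points for the start windows (left) and gene bodies (right) with at least 5 compared cytosines. Points show the difference, bars its standard error from read counts, and grey bands the middle 50% of all protein-coding genes. Window differences of Cebpb and Cebpa lay inside the band, as did that of Sp7, those of Pparg, Prdm16, Sox9 and Lep lay above it, and the bars of Lep and Sp7 are wide.

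Single cytosines with a large difference were few. A strongly changed cytosine had a Fisher's exact p under 0.05 and a difference of at least 33 points, which held for 0.986% of all compared cytosines (0.519% higher and 0.467% lower in siH19). In the listed genes it held for 13 of 2040, or 0.637%, of which 5 were higher and 8 lower, a share below the genome's, and this gap was not tested. After adjustment over all cytosines 0 of the 2040 had a p under 0.05, against 0.00648% of the genome, and the lowest adjusted p was 0.413. Without regard to size, 720 of the 2040 cytosines were higher in siH19, 710 lower and 610 equal. Of all compared cytosines in the genome 35.8% were higher, 33.7% lower and 30.5% equal. The median absolute difference was 3.07 points against 3.33 for all cytosines.

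**Figure D3:**
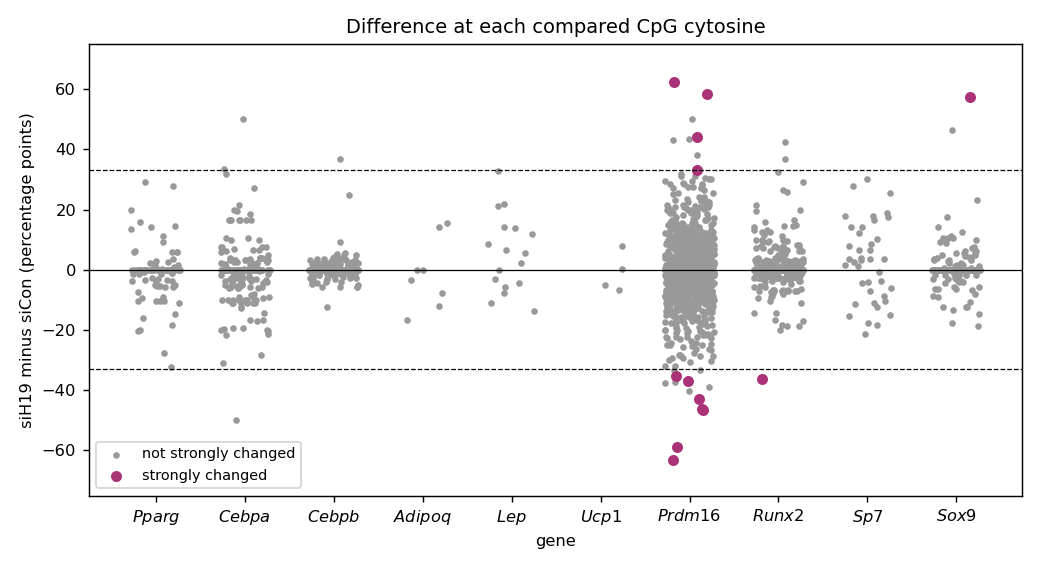
Difference in methylation (siH19 minus siCon, percentage points) at each compared cytosine, by gene, with horizontal jitter. Large purple points are the 13 strongly changed cytosines and dashed lines mark 33 points. Of these points 11 lie in Prdm16, and 1 each in Runx2 and Sox9.

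Pparg, the master regulator of fat cell differentiation (chromosome 6, 115360951 to 115490399, plus strand), was lowly methylated at its start. The window held 65 cytosines, and the summed level was 4.44% in siCon (interval 3.69 to 5.34) and 7.79% in siH19 (6.73 to 9.01). The stratified difference was 1.03 points ± 0.654 (SE of read counts, adjusted p 0.369), smaller than the summed one because reads fell on different cytosines in the libraries. In the first 300 bases after the start 40 cytosines had 1.68% and 1.66%, and from there to 1 kb 25 cytosines had 8.41% and 14.9% summed, with a stratified difference of 2.64 points ± 1.38.

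Just past this window, still inside the start island of Pparg and in its first intron, the levels were higher and the libraries differed in the other direction. The 18 cytosines from 1058 to 1274 bases after the start had 24.2% in siCon (20.9 to 27.9) and 17.9% in siH19 (15.4 to 20.9). Of the 18, 15 were lower in siH19, but many of them lie close enough to share reads. These cytosines weighed most in the gene body, whose 29 cytosines had 22.0% and 19.98%, a stratified difference of -4.46 points ± 1.696 with an adjusted p of 0.176. Further along the gene the levels were at the extremes. A coding exon 102163 to 102233 bases from the start, outside any computed island, had 0.394% and 1.67% at 5 cytosines, whereas 4 cytosines of the last exon had 90.9% and 100%. The antisense transcript Gm44079 overlaps the 5 cytosines of the former exon. Another annotated transcript starts 1341 bases into the gene. Within 1 kb of that start 42 cytosines, some already counted above, had 14.2% in siCon and 16.3% in siH19. Their stratified difference was -1.03 points ± 1.22. The start of a shorter transcript, 61115 bases into the gene, had no compared cytosine within 1 kb, so nothing is known of it here.

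Cebpa, which sustains Pparg in maturing fat cells (chromosome 7, 35119293 to 35121928, plus strand), has a single coding exon, and all its 187 compared cytosines lay in 1 CpG island. Its window had 4.12% in siCon and 3.94% in siH19 over 169 cytosines, with a stratified difference of -0.390 points ± 0.417 and an adjusted p of 0.641. Methylation climbed along the gene in both libraries: 0.388% and 2.17% in the last 300 bases before the start, 1.82% and 2.26% in the first 300 after it, 12.96% and 13.1% from there to 1 kb, and 37.4% and 35.7% at the 18 cytosines beyond. Further upstream the libraries differed in the other direction, since the 48 cytosines more than 300 bases before the start had 3.44% in siCon and 1.33% in siH19. The stratified differences were opposite in sign, -2.005 points ± 0.534 further upstream and 1.71 points ± 0.526 in the last 300 bases. Both errors are too small, since neighbouring cytosines can share reads. In siH19, each plus-strand cytosine at -287 to -256 bases had 1 of 31 reads methylated. Each at -213 to -81 bases had 1 of 6. The antisense transcript Gm45091 overlaps 124 of these cytosines, and DNA methylation cannot be assigned to either strand's gene.

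Cebpb, the early adipogenic factor that is also induced in many other cell types (chromosome 2, 167688915 to 167690418, plus strand), was the least methylated of the 10 genes. Its window had 0.660% in siCon and 0.792% in siH19 over 263 cytosines on 10599 and 9850 reads, a stratified difference of 0.0592 points ± 0.114. Of these cytosines 189 had no methylated read in either library, and the Cebpb stretch printed above had 0.568% and 0.237%. Higher values lay before the island, where 6 cytosines at -990 to -478 bases from the start had 30.6% and 41.6% on 62 and 77 reads. The body, part of the same single exon, had 0.374% and 1.10%, a difference of 0.693 points ± 0.239 with an adjusted p of 0.118, and its siCon level was at percentile 0.214 of gene bodies, whose median was 58.3%. The gene Tmem189 on the other strand, annotated to start inside Cebpb, overlaps 263 of the 306 cytosines.

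**Figure D4:**
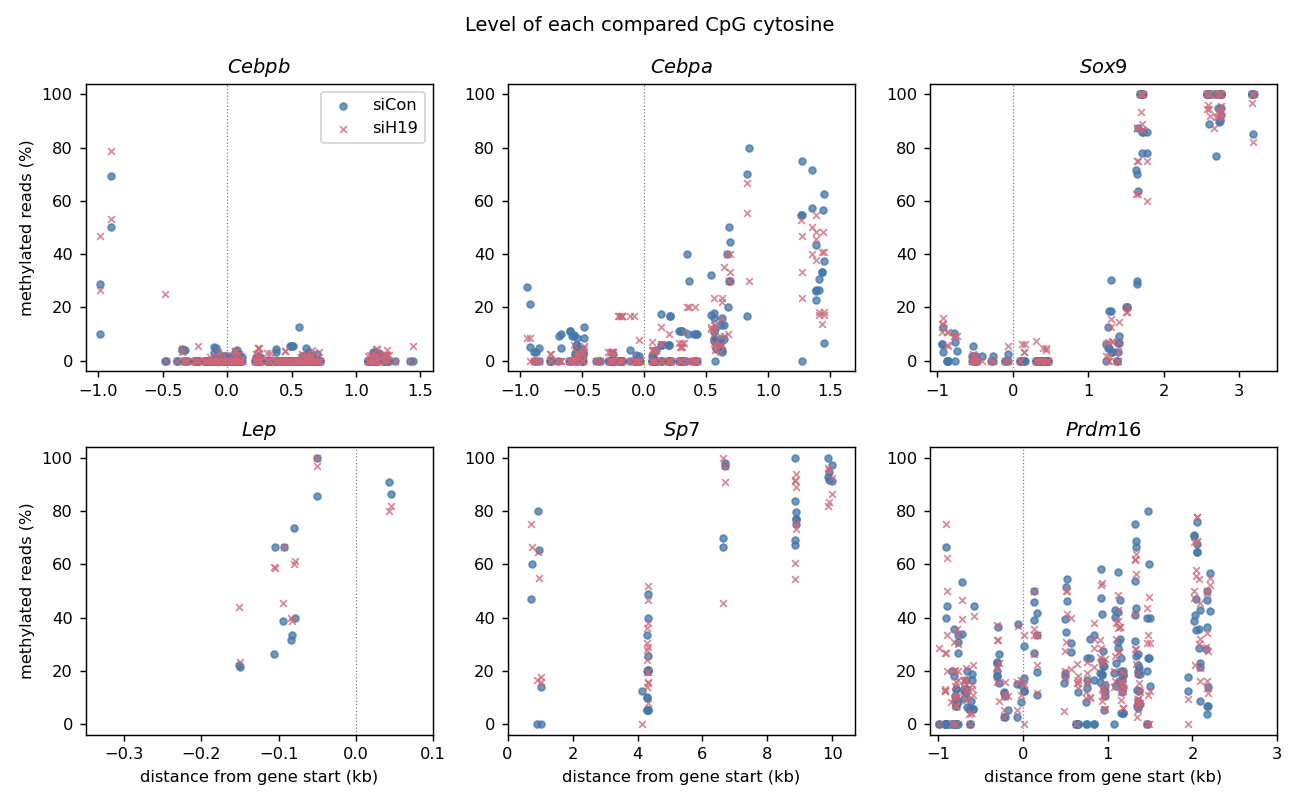
Methylation level (%) of each compared cytosine against its distance from the gene start (kb) in 6 genes, with siCon as circles and siH19 as crosses. Cebpb lay near 0% apart from a few cytosines far upstream, Cebpa and Sox9 climbed from near 0% at the start to high values inside the gene, Lep and most of Sp7 were partly to fully methylated, and Prdm16 scattered between 0 and 80% around its start.

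The genes of mature fat cell products were covered more thinly. Adipoq, which encodes the hormone adiponectin (chromosome 16, 23146536 to 23158028, plus strand), was covered at 8 cytosines of 4 CpGs. Of these 6 lay in an exon, with 81.0% in siCon (72.4 to 87.3) and 76.8% in siH19 (64.2 to 85.9), and the 2 in an intron had 3.57% and 6.67%. Over all 8 the stratified value was -2.62 points ± 5.11 (adjusted p 0.893), on only 133 and 71 reads.

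Lep, which encodes the satiety hormone leptin (chromosome 6, 29060220 to 29073877, plus strand), has no computed CpG island and its start was partly methylated. The window had 55.6% in siCon (49.2 to 61.9) and 61.2% in siH19 (55.4 to 66.7) over 14 cytosines, a stratified difference of 5.57 points ± 4.02 with an adjusted p of 0.442. Of the 14 cytosines 8 were higher in siH19, 5 lower and 1 equal. Among the 12 cytosines of the printed upstream stretch there was no steady order before the last CpG. The plus-strand cytosine at -151 bases had 22.2% and 44%, that at -106 bases 26.3% and 59.1%, that at -80 bases 73.7% and 60%, and that at -51 bases 100% and 97.1%. The CpG at -51 bases lies in the letters TTGCGCAA, the palindrome bound by C/EBP proteins, which on either strand occurs in 0.183% of 32851 RefSeq promoters (300 bases each) and, among the 10 promoter entries found for 8 of the listed genes, in that of Lep alone. Its 2 cytosines had 95.2% (77.3 to 99.2, 21 reads) and 98.1% (90.1 to 99.7, 53 reads), against 51.7% and 52.6% in the rest of the window. That rest includes minus-strand cytosines after the start, with 90.9% and 80% at 43 bases and 86.4% and 81.8% at 45 bases. High levels were thus not confined to the palindrome. The motif hits are matches of letters and say nothing of binding. In the body 3 cytosines had 21.6% and 24.0%.

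The other motifs searched in the same promoter entries were the GC box GGGCGG, found in 5 of the 10 entries and in 35.7% of all promoters, and the cAMP response element TGACGTCA, found in 0 of the 10 and in 1.79% of all. The entries with a GC box were those of Cebpb, Prdm16 and Lep and 2 of the 3 of Pparg. Among cytosines inside GC boxes anywhere in the gene regions, 7 in Cebpb had 0.694% and 1.15%, 12 in Runx2 had 5.08% and 3.72%, 5 in Pparg had 16.3% and 12.6%, 36 in Prdm16 had 21.0% and 27.6%, 2 in Lep had 51.5% and 55%, 2 in Cebpa had 0% and 2.86%, and 2 in Sox9 had 0% in both. They were not tested against other cytosines.

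Ucp1, the uncoupling protein of brown fat (chromosome 8, 83290352 to 83298452, plus strand), was covered at 4 cytosines of 2 CpGs. The CpG at -9 bases from the start, marked in the printed stretch, had 13.04% in siCon and 6.25% in siH19 on the plus strand and 16.9% and 24.8% on the minus strand. Summed, this gave 15.9% (9.72 to 24.95) and 19.3% (13.9 to 26.03), so the strands differed in opposite directions and the intervals overlapped. The CpG in an intron had 31.9% and 30.6%.

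Prdm16, which turns precursors towards brown fat and away from muscle (chromosome 4, 154316125 to 154636873, minus strand), was methylated at intermediate levels along much of its length. Its start window had 17.9% in siCon (16.8 to 19.1) and 18.4% in siH19 (17.4 to 19.4) over 136 cytosines, a stratified difference of 1.501 points ± 0.766 with an adjusted p of 0.235. The start lies in an island of 3645 bp whose 220 compared cytosines had 21.4% and 21.3%. The body had 32.5% and 31.7% over 737 cytosines, a difference of -0.178 points ± 0.380. Of the 873 cytosines 33.6% lay between 20% and 80% in both libraries, against 20.01% of all compared cytosines. This share was 70.6% of the 17 cytosines in Lep, 50% of the 4 in Ucp1 and 37.5% of the 40 in Sp7, and it was 5.71% in Runx2 and 3.97% in Sox9.

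Prdm16 holds 32 computed islands. Those with at least 5 compared cytosines ranged in siCon from 2.11% (5 cytosines) to 54.1% (6 cytosines). Besides the start island, the best covered are given next. The island 92618 to 93005 bases from the start had 53.7% and 60.8% at 17 cytosines, that at 95522 to 95926 bases had 30.7% and 29.9% at 22, that at 163020 to 163365 bases had 19.6% and 23.5% at 16, and that at 108845 to 109101 bases had 46.3% and 39.4% at 10. The stratified difference of the last was 2.34 points ± 3.05, opposite in sign to the summed one. In consecutive stretches of 40 kb the level varied between 8.69% and 44.6% in siCon and between 7.98% and 51.4% in siH19, with the lowest value in both libraries in the stretch from 240 to 280 kb. Antisense transcripts overlap part of the gene, Gm13111 at 39 cytosines upstream of the start and Gm13133 at 27, and the protein-coding gene B230104I21Rik overlaps 87.

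Prdm16, with 873 of the 2040 compared cytosines, held 11 of the 13 strongly changed ones. These 11 made up 1.26% of its cytosines, against 0.986% of all compared cytosines in the genome, and this gap was not tested. The 3 with the lowest p were an exonic cytosine at 154341644 in the printed exon stretch, with 100% in siCon (25 reads) and 53.8% in siH19 (13 reads), an intronic one at 154630385 with 80% (10 reads) and 16.7% (12 reads), and an intronic one at 154421031 with 40% (10 reads) and 84.2% (38 reads). Fisher's exact p was 0.000622, 0.00828 and 0.00923, and the adjusted p was 0.589, 1 and 1. The cytosine on the other strand of the same CpG differed less or the other way: it had 88.9% and 91.1% at the first, 48.1% and 43.8% at the second, and 80% and 60% at the last, so that it differed in the opposite direction at 154341644 and 154421031. Of all 13 strongly changed cytosines, 11 had a covered partner, 4 of the partners differed in the same direction and 0 were strongly changed, and 8 of the 13 rested on 10 or fewer reads in a library. Within 1 library the strands of the 389 Prdm16 CpGs covered on both differed by a median of 8.39 points in siCon and 7.35 in siH19, while the libraries differed by 6.71 on the plus strand and 8.06 on the minus strand.

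**Figure D5:**
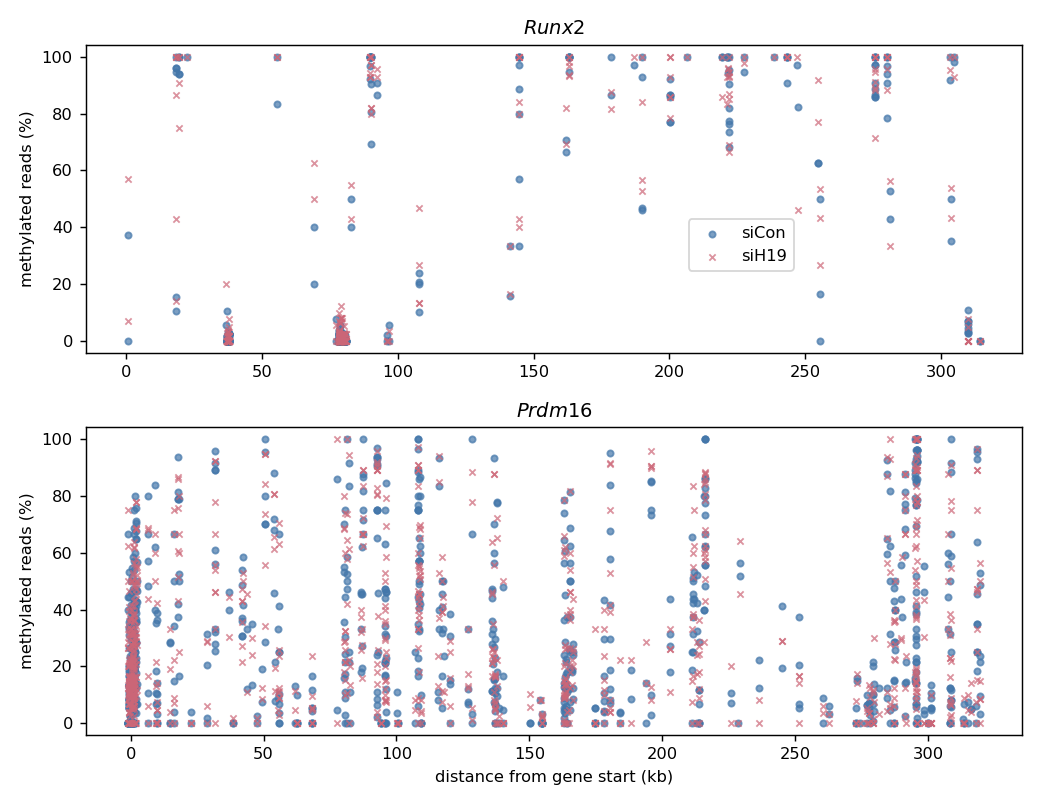
Methylation level (%) of each compared cytosine against distance from the gene start (kb) in Runx2 (top) and Prdm16 (bottom), with siCon as circles and siH19 as crosses. Runx2 cytosines lay mostly near 0% or above 80%, with the dense unmethylated groups at the internal start island and at the start island of Supt3, whereas Prdm16 cytosines filled the whole range.

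Runx2, the factor that commits cells to bone (chromosome 17, 44495987 to 44814797, minus strand), was by contrast split into unmethylated and fully methylated stretches. Its annotated first start, the distal promoter, was covered at 2 cytosines only, with 18.8% in siCon (8.89 to 35.3, 32 reads) and 32.1% in siH19 (17.9 to 50.7, 28 reads). Another 3 annotated transcripts start 78149, 79087 and 79163 bases further in, at a CpG island of 2385 bp that was well covered: the island had 0.446% in siCon (0.316 to 0.629) and 0.803% in siH19 (0.620 to 1.04) over 168 cytosines, a stratified difference of 0.314 points ± 0.136. The antisense transcript Runx2os1 overlaps 107 cytosines here. A second unmethylated island, 37068 to 37961 bases from the start, had 0.756% and 0.576% over 66 cytosines. It holds the start of Supt3, a protein-coding gene on the other strand that runs through the first start of Runx2. Supt3 overlaps 43 of the compared cytosines.

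Other Runx2 cytosines were low as well. A small island at 80780 to 80980 bases had 0% and 1.26% at 6 cytosines, and 1 at 107839 to 108044 bases had 17.7% and 25% at 4. Outside computed islands, the 10 cytosines near the 3′ end of the gene, 309850 to 314326 bases from the start, had 4.18% in siCon (2.85 to 6.10) and 1.58% in siH19 (0.678 to 3.65), and the 4 at 96005 to 96796 bases had 2.17% and 1.22%. Heavily methylated stretches lay between these: the island over a coding exon, part of which is printed above, had 94.6% and 93.8% at 13 cytosines, another at 275572 to 275807 bases had 93.5% and 94.1% at 10, and the 70 cytosines between 141271 and 275770 bases had 85.5% and 83.2%. Of all 385 cytosines 67.3% were under 10% in both libraries and 20.5% over 80% in both. Of all compared cytosines in the genome these shares were 43.1% and 17.4%. The body as a whole had 14.4% and 15.1%, a stratified difference of 0.375 points ± 0.186 with an adjusted p of 0.362. The 1 strongly changed cytosine, intronic at 44567571, had 82.4% (34 reads) and 46.2% (13 reads), with Fisher's exact p 0.0258 and adjusted p 1, and its partner had only 1 read in siH19.

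Sp7 encodes Osterix, which acts after RUNX2 (chromosome 15, 102356606 to 102367182, minus strand). Its start window had 56.6% in siCon (48.2 to 64.7) and 58.3% in siH19 (48.3 to 67.7) at 5 cytosines, a stratified difference of 0.126 points ± 6.59. The 2 transcripts with annotated starts 214 and 669 bases inside the gene record each had 40.2% and 40.9% within 1 kb, at 7 cytosines. The body showed how summed and stratified values can part: reads summed over 35 cytosines gave 55.3% and 44.9%, but the stratified difference was 3.09 points ± 1.45 in the other direction, with an adjusted p of 0.329. Exonic cytosines outside the window had 86.5% and 81.7% and intronic ones 29.4% and 29.9%, and siH19 had more reads in the intron (1268 against 704) and fewer in the exons (519 against 584).

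The intronic island of Sp7, printed above, had 19.6% in siCon (16.4 to 23.3, 510 reads) and 26.7% in siH19 (24.2 to 29.4, 1116 reads) at 14 cytosines of 7 CpGs, a stratified difference of 6.97 points ± 2.22. The strands differed in size: the 7 plus-strand cytosines had 13.3% (9.66 to 18.0) and 28.1% (24.2 to 32.4), all 7 higher in siH19, whereas the 7 minus-strand cytosines had 25.98% (21.0 to 31.7) and 25.7% (22.5 to 29.2), with 5 higher in siH19 and 2 lower. No island was among the regions tested with adjustment, and the 7 cytosines of a strand lie close enough to share reads. The other island of Sp7, in an exon, had 78.1% and 78.8% at 8 cytosines.

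Sox9, the cartilage factor (chromosome 11, 112782224 to 112787760, plus strand), had a steep change of level along the gene. The start island, from -1063 to 1051 bases, was nearly unmethylated, the first intron (19 cytosines, 1232 to 1508 bases) had 7.74% in siCon and 6.17% in siH19, the second exon (18 cytosines, 1637 to 1781 bases) had 80.5% and 86.4%, and the island in the last exon had 97.0% (95.3 to 98.1) and 96.7% (95.4 to 97.6) at 33 cytosines. The 2 islands of Sox9, both rich in CpG, thus stood at opposite ends of the scale in both libraries, as the printed stretches show with 0.676% and 1.79% upstream and 96.7% and 96.9% in the last exon. The body had 59.3% and 66.8% summed but a stratified difference of -0.744 points ± 0.862. In the second exon the minus-strand cytosine at 112783864 was strongly changed, with 30.0% (10 reads) and 87.5% (8 reads), Fisher's exact p 0.0248 and adjusted p 1, and its partner had 28.6% and 75% in the same direction on 7 and 8 reads.

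The start window of Sox9, 1 of 7 windows tested, was the only listed region with an adjusted p under 0.05. The share of all windows below this p without a minimum difference is not given here, so the 1 of 7 has no genome value beside it. It had 1.29% in siCon (0.890 to 1.87) and 2.34% in siH19 (1.77 to 3.07) over 56 cytosines, a stratified difference of 1.42 points ± 0.418 with a Cochran-Mantel-Haenszel adjusted p of 0.0171, below the minimum of 10 points for a call. Of the cytosines 23 were higher in siH19, 6 lower, and 27 had no methylated read in either library. Divided by distance after the values were seen, the 12 cytosines at -934 to -738 bases had 4.13% (2.63 to 6.43) and 10.3% (7.15 to 14.5). Of these, 11 were higher in siH19. The 18 at -543 to -65 bases had 0.851% and 0.640%. The 26 after the start had 0 of 594 reads methylated in siCon, an interval up to 0.643%, and 2.02% in siH19. Many of these cytosines lie close enough to share reads, so the intervals are too narrow and the 11 are not independent. In siH19, each compared cytosine at -771 to -738 bases had 1 of 11 reads methylated. The window lost this p when it was made narrower or wider or when reads were summed (values in the closing section). The transcript BC006965 overlaps 26 Sox9 cytosines upstream.

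Other genes of the same lineages and the muscle factors give the setting. Strongly changed cytosines numbered 22 of 1747 (1.26%) in 15 further fat genes, 20 of 1379 (1.45%) in 11 further cartilage genes, 6 of 861 (0.697%) in 12 further bone genes and 4 of 483 (0.828%) in 7 muscle factors, against the 0.986% of the genome. Start windows or bodies called different numbered 0 in each of these lists. Windows with an adjusted p under 0.05 numbered 1 of 9 in the fat list and 1 of 5 in the bone list. They numbered 0 of 7 in the cartilage list and 0 of 5 in the muscle list. Among bodies there was 1 of 9 in the bone list and 0 in the others. No share over all genes is given for this criterion. An adjusted p under 0.05 with a smaller difference was reached by the window of Cebpd, a further C/EBP factor (3.77% and 4.08%, 1.57 points ± 0.388, adjusted p 0.00283), the window of Msx2, a homeobox factor of bone and skull (19.5% and 15.3%, -5.56 points ± 1.23, adjusted p 0.000617), and the body of Phex, an endopeptidase of bone cells (49.7% and 58.0%, 7.89 points ± 1.62, adjusted p 0.000689). In the cartilage list the largest window difference was that of Col2a1, the main collagen of cartilage, with 24.7% and 29.9% and 2.35 points ± 1.18.

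Start windows of the muscle factors covered the range from near 0% to over 70%. The median window level in siCon was 4.44% over the 7 tested windows of the listed genes. It was 12.2% over 9 windows in the fat list and 12.5% over 5 in the bone list. In the cartilage list it was 24.7% over 7, and in the muscle list 34.1% over 5. The muscle median is the level of Myod1 alone, with the other windows far below or above it, and the medians were not tested against each other. Myog, which drives terminal muscle differentiation, had 72.7% and 80% at 6 cytosines, and Myod1, the muscle determination factor, had 34.1% and 39.4% at 59, with a difference of 3.78 points ± 1.77 and an adjusted p of 0.188. Myf5 had 60.6% and 55.2% at 9 cytosines, and Myf6 had no compared cytosine. Mef2a and Mef2d, named after their values were seen, had 1.10% and 0.542% at 128 cytosines and 0.464% and 0.361% at 153.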

How the data were processed

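DNA methylation was measured in 2 libraries, siCon and siH19, grouped by the labels. Per the methods, the authors digested DNA with TaqαI and MspI, aligned reads with Bismark in non-directional mode and trimmed filled-in bases. The submitters' processing notes name bcl2fastq 1.8.4 and mm10. The deposited files gave, per CpG cytosine and strand, a text field with methylated and total read counts, and the authors' score, a scaled methylated share used here only to check the counts, which it matched in 100% of entries. Counts were raw and not normalized. Removal of duplicate reads was not given in the sources used here.

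Each of the 6041258 positions on the main chromosomes was a CpG cytosine in the GRCm38 sequence. Genes came from GENCODE vM21 (basic). A gene start was the outermost annotated one, and islands were computed with a minimum length of 200 bp, GC of 50% and observed/expected CpG of 0.6. Cytosines in CCGG or TCGA were left out, since fill-in can change them, and 5 reads were required in each library. Whether any filled-in bases remained after the authors' trimming was not tested. Cytosines were compared by Fisher's exact test (two-sided), and windows and bodies by a Cochran-Mantel-Haenszel test stratified by cytosine, with Benjamini-Hochberg adjustment over the whole genome. Standard errors are those of the Mantel-Haenszel difference and count reads as independent. With 1 library per group, the tests compare 2 libraries and not the conditions.

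The genes and lists were chosen with earlier results of these data known. All 10 genes were named, with up to 3 strongly changed cytosines per gene by lowest p. Islands named had at least 5 compared cytosines, up to 5 per gene by number of cytosines, except a Runx2 island with 4. Up to 3 genes were named per further fat, bone or cartilage list, and more of the muscle factors. Python 3.11.15, numpy 2.4.6, pandas 2.3.3, scipy 1.17.1, numba 0.67.0 and matplotlib 3.10.9 were used, and the tests were tried on simulated data. Alternatives varied the read minimum, thresholds, windows, weighting, strands, depth, repeats and restriction sites.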

Additional observations from a re-analysis of the deposited data

How the results depend on the processing

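The count of 13 strongly changed cytosines became 26 with a minimum of 25 points and 5 with 50 points, 45 with CCGG and TCGA cytosines kept (1.39%, against 1.42% genome-wide), and 5 with strands summed (0.426%, against 0.757%), and it stayed within 1.5 times under the other read minimum, without the deepest cytosines and without repeats. The count of 0 cytosines with an adjusted p under 0.05 became 9 with CCGG and TCGA kept, or 0.278% against 0.236% genome-wide. The count of 0 called windows became 1 (Sox9) with no minimum difference. The count of 0 called bodies became 1 (Sp7) with Fisher's exact test of summed reads, since reads fell on different cytosines in the libraries. The shares over all genes in these settings are not given here.

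Of 98 per-gene differences recomputed with a test, 83 kept direction and side of the threshold, 3 lost an adjusted p under 0.05, 4 gained one and 8 reversed. Another 15, the unweighted means, have no test: 14 moved within the 95% interval of the stratified value and 1 reversed. Those lost were all the Sox9 window, with adjusted p of 0.0740 for summed reads, 0.159 for 500 bp windows and 0.325 for 2 kb windows. Those gained were the Pparg window and Cebpb body with summed reads (adjusted p 7.34e-05 and 0.0144) and the Cebpb and Runx2 bodies with CCGG and TCGA kept (0.000419 and 0.00346). The reversed values, in points, were 7.48 (summed) and 0.148 (unweighted) for the Sox9 body, -10.3 (summed) for the Sp7 body, 0.212, -0.0308, -0.206 and -0.466 for the windows of Cebpa, Cebpb, Pparg and Prdm16 at 500 bp, -0.658 for that of Pparg at 2 kb, and 0.329 for the Prdm16 body with CCGG and TCGA kept. Except for the summed reads, the cause was not tested.

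No paired analysis was possible because each group had 1 library, and none was left out in turn for the same reason. Depth limits Ucp1, Adipoq, Lep and the start windows of Runx2 and Sp7, with 28 to 281 reads per region and library.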
